A study of Mus musculus with 8 samples.

Results

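The collagens and laminins were read as 54 genes out of 37620 in the files, namely every gene of the annotation whose symbol is that of a collagen alpha chain or of a laminin alpha, beta or gamma chain. They were divided into 20 genes of basement membranes, 11 genes of fibrillar collagens and 23 genes of 5 smaller classes. Of the 54 genes, 44 reached 1 CPM (a count scaled to a library total of 1000000 counts in genes) in at least 1 library and 29 reached 10 CPM. A filter on low counts, at least 10 counts in at least 2 libraries, was passed by 49 of them, and these entered the tests. Col4a1, Lama1 and Lamb1, chosen as the markers of this set, were detected in all 8 libraries.

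A basement membrane is a thin sheet of matrix under epithelia that is built on networks of laminin and of type IV collagen, bridged by nidogen and perlecan. Laminins are cross-shaped trimers of an alpha, a beta and a gamma chain, and the alpha chain carries the sites that integrins and dystroglycan bind. Fibrillar collagens such as types I, III and V form the cables of connective tissue, and type VI forms beaded filaments beside them. In the early mouse embryo the extraembryonic endoderm is known as an abundant source of laminin and type IV collagen, while the epiblast rests on the sheet so formed.

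The data were RNA-seq counts from 8 libraries of mouse pluripotent stem cells (PSCs) and cells derived from them. Mouse embryonic stem cells (mESCs) of the R1 line, a long established line, were cultured without feeders in medium with serum. CHIR99021, an inhibitor of GSK3, at 3 µM and PD0325901, an inhibitor of MEK, at 1 µM made up 2i, which was sampled on day 5 (n = 1). With a JAK inhibitor at 2.0 µM the condition was 2iJ, sampled on day 5 (n = 1), and 2iJ with BMP4 at 10 ng/ml and an ALK5 inhibitor at 10 µM was 2iJ+B-A, sampled on days 2, 5 and 11 (n = 3). Sorted cells (n = 1) were the GFP-positive cells of a Cdx2-GFP reporter line after 2 days in 2iJ+B-A, so that library differed from the others in line and in sorting. Mesoderm progenitors (n = 2) were R1 cells from embryoid bodies given BMP4, Activin A and Wnt3a, in a medium for which no serum is listed. They were taken on day 3, or on day 4 after 24 h with an inhibitor of Wnt secretion. All mESC libraries thus share both inhibitors of 2i, which the mesoderm progenitors were not given, and medium, aggregation and treatment cannot be told apart in any comparison with the latter.

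Total gene counts ranged from 24532587 to 31453888 in 7 libraries and came to 19810855 in the sorted library, in which 29.7% of read pairs were unmapped against 3.85% or less elsewhere, and 27.8% of uniquely mapped pairs fell in no gene against 13.2% or less. The limit that a count of 0 allows, 3 counts, lay between 0.0954 and 0.151 CPM. For a member at 10 CPM or more, the widest 95% Wilson interval reached 13.2% to either side, and such intervals cover counting error only. The markers T, Mixl1, Mesp1 and Lhx1 of nascent mesoderm passed the test in the mesoderm progenitors, with T at 547 CPM and then 6.30 CPM on days 3 and 4, while Cdx2 was at 235 CPM in the sorted library against 15 to 30.1 CPM in 2iJ+B-A. No source states that the days of a group were separate cultures, so the p-values measure only the spread between these libraries, which includes change with time. In bulk RNA, fewer cells of a type and less RNA per cell cannot be told apart.

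The genes of basement membranes made up most of the collagen and laminin counts in every library. Their summed level was 1127 CPM in 2i and 1192 CPM in 2iJ. In 2iJ+B-A it was 1024, 2093 and 4488 CPM on days 2, 5 and 11 (2535 ± 1774, SD, n = 3). It was 1624 CPM in the sorted cells and 1017 and 1144 CPM in the mesoderm progenitors of days 3 and 4 (1081 ± 89.4, SD, n = 2). Only the day 5 and day 11 libraries of 2iJ+B-A stood above all other libraries, and the day 2 library lay within the range of 2i, 2iJ and the mesoderm progenitors.

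The fibrillar collagens were a small share, at 43.2 and 60.1 CPM in 2i and 2iJ, 46.3, 112 and 90.3 CPM over the days of 2iJ+B-A and 101 and 114 CPM in the mesoderm progenitors. Their sum was highest in the sorted cells, at 199.7 CPM. The 5 smaller classes together came to between 50.5 and 113 CPM, again highest in the sorted cells. Of the 44 genes that reached 1 CPM, 16 were highest in the sorted library, 11 in the mesoderm progenitors of day 4 and 8 in 2iJ+B-A on day 11, where 5 of those 8 belong to basement membranes. Over the 15504 tested genes that reached 1 CPM, these 3 libraries held the highest value of 23.4%, 21.9% and 9.41%.

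**Figure D1:**
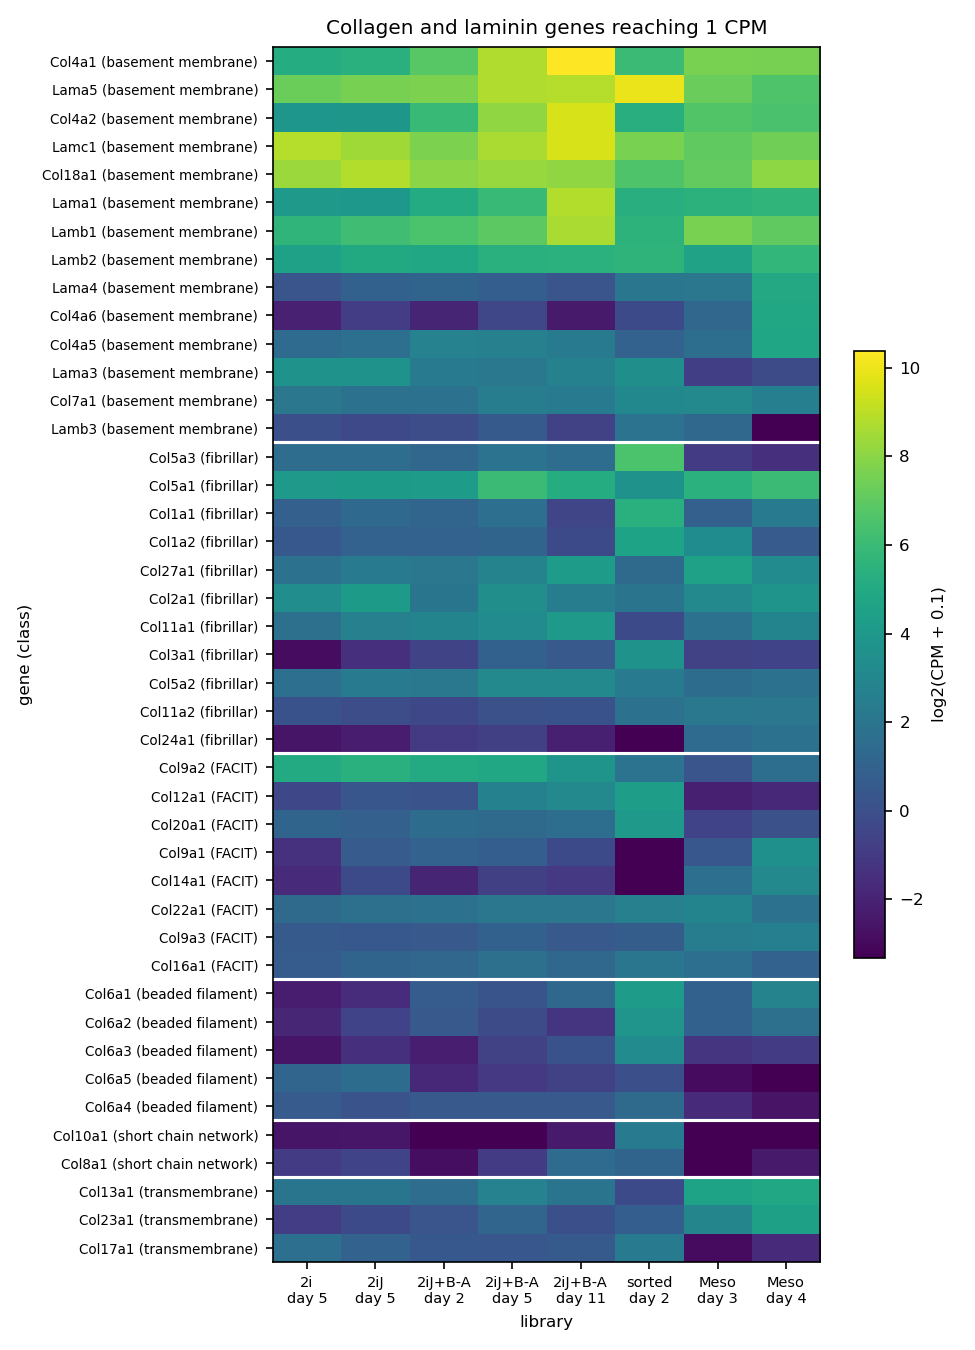
Level of collagen and laminin genes that reached 1 CPM, as log2(CPM + 0.1), in each of the 8 libraries, with genes grouped by class (white lines) and ordered by their highest level (FACIT, collagens that attach to fibrils). The brightest rows belong to Col4a1, Col4a2, Lama1, Lama5, Lamb1, Lamc1 and Col18a1, and Col5a3 and Col1a1 are bright in the sorted library.

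Type IV collagen is the network-forming collagen of basement membranes, and its common form is a trimer with more alpha 1 than alpha 2 chains. Col4a1, the alpha 1 chain, was at 36.1 CPM in 2i, 41.5 CPM in 2iJ, 115, 434 and 1334 CPM on days 2, 5 and 11 of 2iJ+B-A, 64.9 CPM in the sorted cells and 198 and 189 CPM in the mesoderm progenitors. Col4a2, the alpha 2 chain, was at 14.4, 15.3, 59.1, 272, 759, 40.5, 100.5 and 87.9 CPM in the same order. Both chains were lowest in 2i and 2iJ, higher in each later library of 2iJ+B-A, and highest of all libraries on day 11. On day 5, the day on which 2iJ was sampled, the level in 2iJ+B-A was 10.5-fold that of 2iJ for Col4a1 and 17.8-fold for Col4a2. The day 11 level was 32.1-fold and 49.6-fold that of 2iJ on day 5, and all 4 ratios are of single libraries with no replicate check.

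Per kilobase of exon, which allows genes of different length to be compared, Col4a1 stood above Col4a2 in every library. The ratio of the 2 chains was 2.44 in 2i, 2.63 in 2iJ and between 1.55 and 2.09 in the other 6 libraries, so it varied by less than either level did. The chains alpha 3 and alpha 4, known from the glomerulus of the kidney, were hardly detected. Col4a3 had no count in any library, which allows at most 0.151 CPM, and Col4a4 did not pass 0.0954 CPM.

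The genes Col4a1 and Col4a2 lie head to head on chromosome 8, with Col4a1 on the minus strand (11198423 to 11312826) and Col4a2 on the plus strand (11312805 to 11449287) in NCBIM37. Their annotated bodies overlap by 22 bases, and because counting used the strand, reads of one were kept apart from reads of the other. The windows of 250 bases before to 50 bases after each start follow as RefSeq gives them for GRCm38.p6, since the pair shared its pattern over all libraries and shares a stretch of promoter. Capitals mark the 78 bases common to both windows, written as each strand reads them.
Col4a1, chr8:11312777-11313076, minus strand: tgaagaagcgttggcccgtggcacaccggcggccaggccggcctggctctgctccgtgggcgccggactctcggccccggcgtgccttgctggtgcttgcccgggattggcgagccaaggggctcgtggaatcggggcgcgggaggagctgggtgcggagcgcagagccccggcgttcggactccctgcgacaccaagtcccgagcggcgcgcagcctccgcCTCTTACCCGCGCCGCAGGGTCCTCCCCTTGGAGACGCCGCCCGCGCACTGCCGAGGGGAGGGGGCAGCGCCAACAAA
Col4a2, chr8:11312555-11312854, plus strand: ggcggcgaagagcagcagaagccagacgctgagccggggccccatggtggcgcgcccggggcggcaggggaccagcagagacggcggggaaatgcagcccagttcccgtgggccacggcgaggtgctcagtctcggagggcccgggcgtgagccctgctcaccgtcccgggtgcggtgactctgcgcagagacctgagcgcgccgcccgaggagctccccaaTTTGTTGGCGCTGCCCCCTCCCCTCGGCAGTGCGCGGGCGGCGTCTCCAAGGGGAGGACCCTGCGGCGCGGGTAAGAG
The same letters stand at the same coordinates in NCBIM37. The motif GGGCGG, the GC box, was searched on both strands (CCGCCC on the other). It occurs 1 time in the Col4a1 window, 3 times in the Col4a2 window and 1 time in the shared stretch. It was found in 35.7% of all 32851 windows of this length, and the median GC content of all windows was 52.7% against 74.0% and 73.7% here. The motif CCAAT (or ATTGG) occurs 1 time in each of the 2 windows, against 37.4% of all windows with a match, and neither GATAA (or TTATC; 25.4% of all windows) nor TATAAA (or TTTATA; 13.6%) was found. A match of letters is a description and not a site.

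The minor chains Col4a5 and Col4a6, which form a separate type IV network and are also neighbours in the genome, behaved otherwise. Col4a5 was at 2.63 and 3.07 CPM in 2i and 2iJ, 6.60, 6.17 and 4.85 CPM in 2iJ+B-A, 1.87 CPM in the sorted cells, 3.02 CPM in the mesoderm progenitors of day 3 and 26.3 CPM in those of day 4. Col4a6 did not exceed 0.757 CPM in the 6 mESC libraries and was at 2.19 and 28.9 CPM in the mesoderm progenitors. Of the summed type IV chains per kilobase, these 2 made up 8.08% and 7.45% in the mesoderm progenitors of day 4 and at most 5.13% and 0.655% in any other library.

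**Figure D2:**
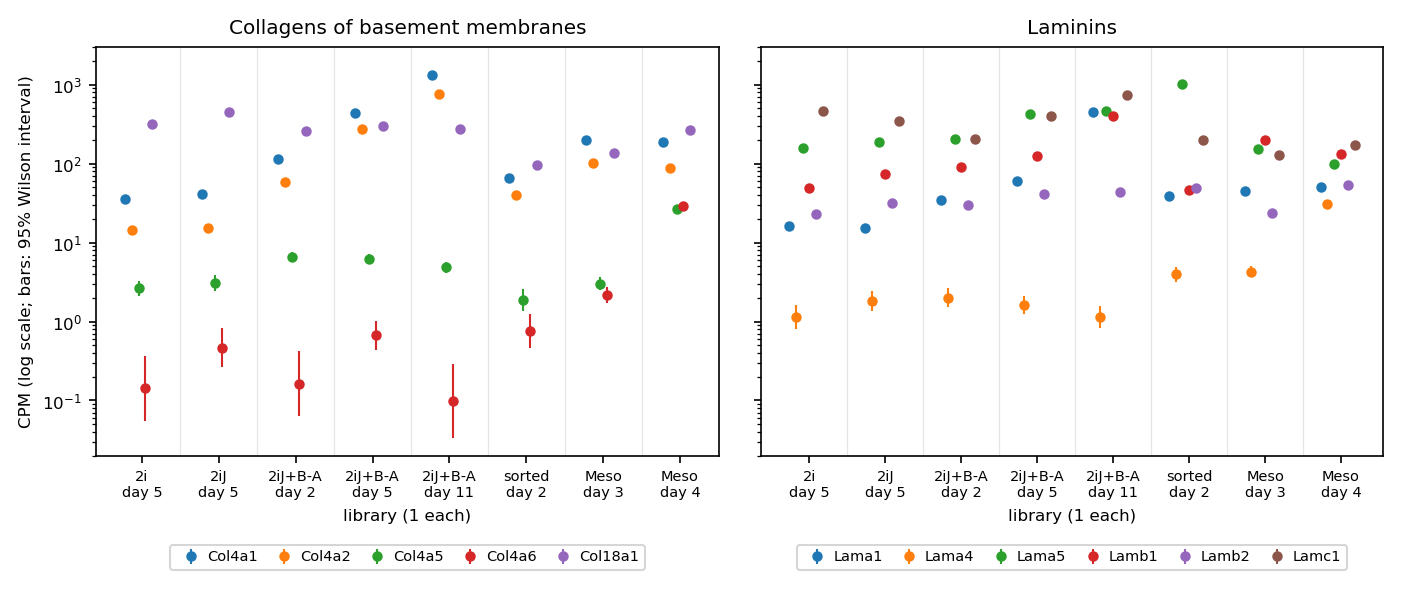
CPM on a log scale of 5 collagens (left) and 6 laminin chains (right) of basement membranes in each of the 8 libraries; bars are 95% Wilson intervals, mostly smaller than the points. Col4a1 and Col4a2 climb from 2iJ to day 11 of 2iJ+B-A, Lama5 is highest in the sorted cells at 1028 CPM, and Col4a5, Col4a6 and Lama4 are highest in the mesoderm progenitors of day 4.

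Laminin alpha chains decide which laminin a cell assembles, and Lama1 and Lama5 are the embryonic ones. Lama1 was at 16.3 and 15.5 CPM in 2i and 2iJ, 35.0, 60.0 and 444 CPM on the 3 days of 2iJ+B-A, 38.4 CPM in the sorted cells and 45.2 and 49.8 CPM in the mesoderm progenitors. Lama5 was at 157, 189.9, 203, 429.9, 465, 1028, 155 and 98.5 CPM in that order. Lama1 was thus far higher on day 11 of 2iJ+B-A than anywhere else, whereas Lama5 was highest in the sorted library and lowest in the mesoderm progenitors of day 4.

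Per kilobase, Lama5 made up 81.6% and 84.7% of the alpha chains in 2i and 2iJ, 80.4% and 84.4% on days 2 and 5 of 2iJ+B-A and 94.3% in the sorted cells. On day 11 its share was 46.2% and that of Lama1 was 52.9%, the only library in which Lama1 came first. In the mesoderm progenitors Lama1 held 25.4% and 31.6%. Lama4, an alpha chain known from vessels and mesenchyme, held 15.4% there on day 4 and 1.90% or less elsewhere, with levels of 1.14 to 3.99 CPM in the mESC libraries and 4.29 and 30.7 CPM in the mesoderm progenitors. Lama3, the alpha chain of epithelial anchoring, was at 13.2 and 12.6 CPM in 2i and 2iJ, 5.10, 4.36 and 6.45 CPM in 2iJ+B-A, 11.2 CPM in the sorted cells and 0.477 and 0.808 CPM in the mesoderm progenitors. Lama2, the muscle form, stayed below 1 CPM throughout.

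Lamb1 and Lamc1 are the beta and gamma chains shared by most laminins. Lamb1 was at 49.5 and 72.8 CPM in 2i and 2iJ, 91.1, 124 and 399 CPM in 2iJ+B-A, 46.3 CPM in the sorted cells and 201 and 133 CPM in the mesoderm progenitors. Lamc1 was at 468, 349.8, 205, 398, 743, 201, 129.9 and 172 CPM in the same order. Unlike the type IV chains, Lamc1 was already abundant in 2i, where per kilobase it stood at 10.7 times the level of Col4a1, against 0.459 times on day 11 of 2iJ+B-A. The ratio of Lamb1 to Lamc1 per kilobase lay between 0.0883 and 0.448 in the mESC libraries and was 1.29 and 0.646 in the mesoderm progenitors, where beta chain RNA was nearer to or above gamma chain RNA. Lamb2, the alternative beta chain, ranged from 23.1 CPM in 2i to 52.9 CPM in the mesoderm progenitors of day 4, with 31.6 CPM in 2iJ, 30.0, 41.1 and 43.3 CPM in 2iJ+B-A, 48.7 CPM in the sorted cells and 24.0 CPM on day 3.

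Lamb3, a beta chain that pairs with Lama3 in the laminin of epithelial hemidesmosomes, was at most 1.37 CPM in the R1 mESC libraries, 3.63 CPM in the sorted cells, 2.35 CPM in the mesoderm progenitors of day 3 and had no count on day 4. Lamb3 was highest in the sorted library, and Lama3 was lowest in the mesoderm progenitors. Lamc3 did not reach 1 CPM.

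**Figure D3:**
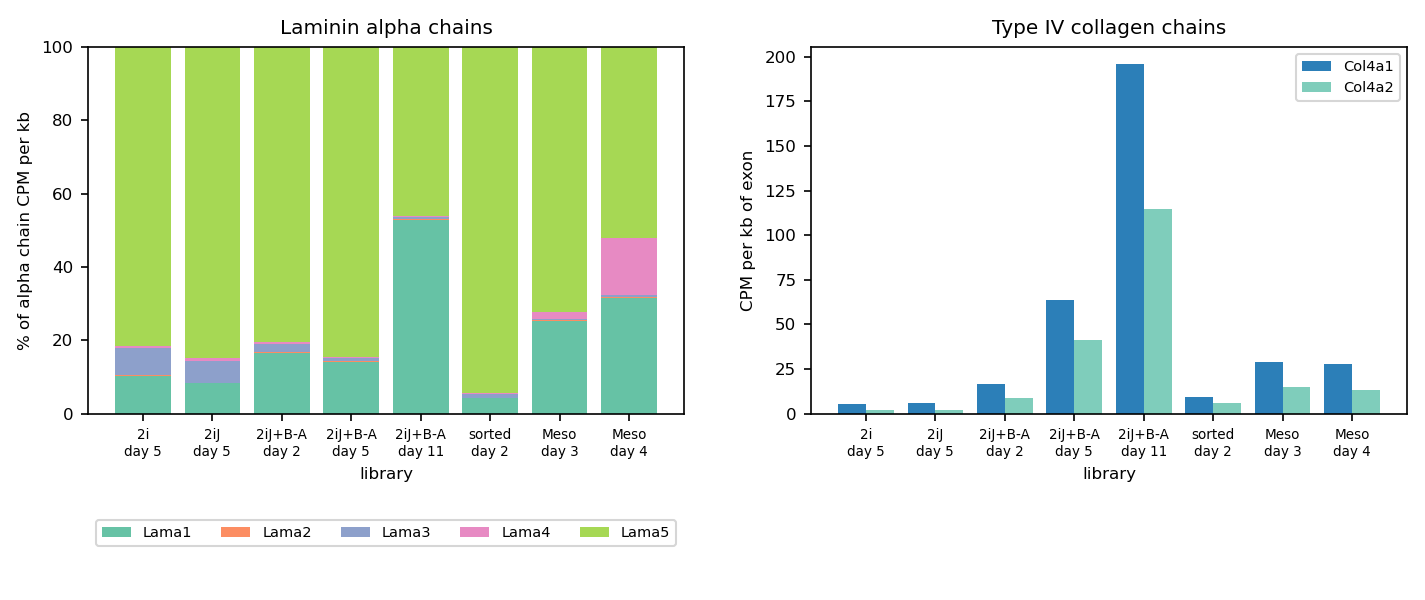
Left, share of each laminin alpha chain in the summed CPM per kilobase of the 5 alpha chains, by library (bars add to 100%); right, CPM per kilobase of exon of Col4a1 and Col4a2, on a linear axis from 0. Lama5 dominates every library except 2iJ+B-A on day 11, where Lama1 holds 52.9%, and both type IV chains are tallest there.

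Col18a1 and Col15a1 are the multiplexins, collagens of basement membranes whose ends are cleaved to anti-angiogenic fragments. Col18a1 was at 318 and 445 CPM in 2i and 2iJ, 259, 302 and 271 CPM in 2iJ+B-A, 97.4 CPM in the sorted cells and 135 and 266 CPM in the mesoderm progenitors. It was therefore the one abundant gene of the class that was lower in all 3 libraries of 2iJ+B-A than in 2i and 2iJ. Slc19a1, annotated on the opposite strand, overlaps Col18a1 by 8825 bases, and the 2 were separated by strand. Col7a1, the anchoring fibril collagen, stayed between 3.30 and 8.68 CPM, and Col15a1 below 1 CPM.

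JAK inhibition on top of 2i was compared in 1 library on each side. In a test added after the data had been seen, which took the spread from the other groups, no gene and no member passed (edgeR; 0% called, 86 of 16961 genes and 0 of 49 members at an unadjusted p under 0.05), and the estimate was 0.19 ± 1.33 for Col4a1, -0.09 ± 1.59 for Lama1 and 0.26 ± 0.57 for Lama5 on the log2 scale (SE). By level, of 32 members at 1 CPM or more in either library, Col9a1 was at least 2-fold higher in 2iJ (0.284 CPM in 2i against 1.44 CPM in 2iJ). Over all 13574 genes at that level, 2.62% were at least 2-fold higher and 1.04% at least 2-fold lower. The ratio of 2iJ to 2i was 1.15 for Col4a1, 1.06 for Col4a2, 0.95 for Lama1, 1.47 for Lamb1, 0.748 for Lamc1 and 1.21 for Lama5.

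The addition of BMP4 and the ALK5 inhibitor was tested as 2iJ+B-A (3 libraries) against 2iJ (1 library). No gene passed edgeR's quasi-likelihood test with Benjamini-Hochberg adjustment over the 16961 genes tested (0% called; lowest adjusted p = 0.244), and so no member did. At an unadjusted p under 0.05 there were 1290 genes (7.61%) and 7 of the 49 members, and DESeq2 called 283 genes but 0 members. The estimates were large for the type IV chains, at 3.85 ± 1.39 on the log2 scale (SE; edgeR adjusted p = 0.592) for Col4a1 and 4.50 ± 1.48 (edgeR adjusted p = 0.555) for Col4a2. For Lama1 the estimate was 3.47 ± 1.61, for Lamb1 1.43 ± 0.86, for Lama5 0.88 ± 0.49 and for Col18a1 -0.74 ± 0.35 (edgeR adjusted p from 0.702 to 0.796). For Lamc1 it was 0.29 ± 0.63, and without the day 11 library it turned to -0.295.

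By level alone, 17 members were higher in all 3 libraries of 2iJ+B-A than in both 2i and 2iJ, against a background of 26.5% of the genes tested. They included Col4a1, Col4a2, Col4a5, Lama1, Lama5, Lamb1, Col5a1 and Col6a1. Another 4, Col18a1, Lama3, Col17a1 and Col6a5, were lower in all 3, against a background of 17%. Read against 49 members tested, the first count is somewhat above the share of all genes and the second below it, and neither difference was tested.

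The days of 2iJ+B-A were then set side by side. Of 36 members at 1 CPM or more on day 2 or day 11, 10 were higher at both steps and at least 2-fold higher on day 11 than on day 2, against a background of 7.38% of 13984 genes. These were Col4a1, Col4a2, Lama1, Lama5, Lamb1 and Lamc1 of the basement membranes, the fibrillar Col11a1 and Col27a1, and Col12a1 and Col8a1. Day 11 exceeded day 2 by 11.6-fold for Col4a1, 12.8-fold for Col4a2, 12.7-fold for Lama1, 4.38-fold for Lamb1, 3.62-fold for Lamc1 and 2.28-fold for Lama5. In CPM, the step from day 5 to day 11 carried most of the increase of Col4a1, Col4a2, Lama1, Lamb1 and Lamc1. As a ratio, the step from day 2 to day 5 was the larger for Col4a1, Col4a2 and Lamc1, and the later step for Lama1 and Lamb1. Lama5 had nearly reached its day 11 level by day 5. Lower at both steps and at least 2-fold in all were Col9a2, Col9a1 and Col6a2, 3 of 36, against 4.86% of all genes.

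**Figure D4:**
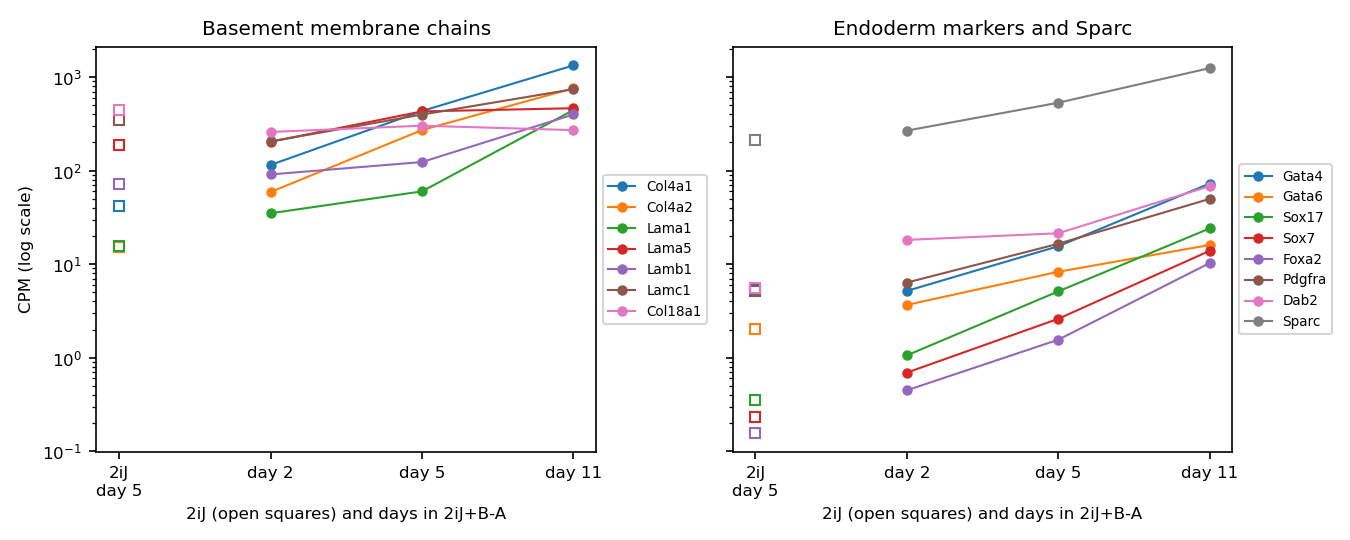
CPM on a log scale in 2iJ (open squares) and on days 2, 5 and 11 of 2iJ+B-A (points joined by lines, equally spaced) for 7 basement membrane genes (left) and for 7 endoderm markers with the basement membrane protein Sparc (right). Of the left panel, all but Col18a1 are higher on each later day, and so are all genes of the right panel. The right panel draws only 7 of the 12 listed endoderm markers. Hnf4a, which did not show this order (5.58, 2.45 and 12.5 CPM), is not among them.

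A slope on the log2 of the day within 2iJ+B-A was fitted after the data had been seen. Col4a1 and Col4a2 ranked 1 and 2 of the 16961 genes by p, with slopes of 1.43 ± 0.08 and 1.49 ± 0.10 log2 units per doubling of time (SE; edgeR adjusted p = 0.144 and 0.162), and no gene passed the threshold. There were 1004 genes and 10 members at an unadjusted p under 0.05, all 10 members with a positive slope. Without the mesoderm progenitors of day 3, or without those of day 4, the slopes of Col4a1 and Col4a2 were 1.422 and 1.485. The slope draws on the 2iJ+B-A libraries alone, so its near-equal value in these fits is no check on it. The only spread left in either fit is the departure of the 2iJ+B-A days from a line, so no gene is read as called from them.

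Markers of primitive and parietal endoderm were then read in the same libraries. Their summed level over 12 genes was 16.7 CPM in 2i, 24.95 CPM in 2iJ, 45.65, 80.37 and 291.6 CPM on days 2, 5 and 11 of 2iJ+B-A, 257.8 CPM in the sorted cells and 283.4 and 597.5 CPM in the mesoderm progenitors. Of the 12, 11 were higher at both steps of days 2, 5 and 11, among them Gata4 (5.18, 15.5 and 72.8 CPM), Sox17 (1.06, 5.12 and 24.1 CPM) and Foxa2 (0.448, 1.56 and 10.3 CPM). Hnf4a was the exception (5.58, 2.45 and 12.5 CPM). The same order held for 3 of 5 pluripotent markers, 4 of 8 fibroblast markers and 7 of 14 basement membrane partners. It held for 0 of 8 trophectoderm markers and 0 of 4 markers of nascent mesoderm. Its share over all genes was not counted, so the count is not read as a result about the endoderm list. Of 11 endoderm markers tested in 2iJ+B-A against 2iJ, 0 passed (edgeR), but no gene at all passed there, so this says nothing about the list. All 11 estimates were above 0, with a median log2 fold change of 2.46 beside 0.03 over all genes tested. Afp and Ttr had no count on day 2 and reached 1.79 and 0.130 CPM on day 11. The part of endoderm cells in the collagen and laminin levels was not tested. The high sum of the list in the sorted cells was mostly Dab2 (212 CPM). In the mesoderm progenitors it was mostly Gata4, Gata6 and Pdgfra, which mesoderm is also known to express. Gata4, Dab2 and Pdgfra were also the highest of the list on day 11 of 2iJ+B-A (72.8, 68.3 and 49.9 CPM). Sox17 stayed at 1.16 to 2.10 CPM in the sorted cells and the mesoderm progenitors. Sox7, however, was at 9.53 CPM in the mesoderm progenitors of day 4, against 13.9 CPM on day 11 of 2iJ+B-A.

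Cdx2-GFP-positive cells were compared with unsorted 2iJ+B-A as 1 library against 3. In the sorted cells 7 members were higher by edgeR's quasi-likelihood test (adjusted p under 0.05), against a background of 3.34% of 16961 genes, and 0 were lower, against 2.08%. The 7 were Col1a1, Col3a1 and Col5a3 among the fibrillar collagens, Col6a1, Col6a2 and Col6a3, which together make type VI collagen, and the FACIT Col20a1. No member of the basement membrane class passed in this fit. At an unadjusted p under 0.05 there were 23 of 49 members, against 27.0% of all genes tested.

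Col5a3, a minor chain of type V collagen, was at 91.3 CPM in the sorted cells and between 0.258 and 3.69 CPM in the other 7 libraries (2.84 CPM in 2i, 2.84 CPM in 2iJ, 2.16, 3.69 and 2.83 CPM in 2iJ+B-A, 0.413 and 0.258 CPM in the mesoderm progenitors). Its log2 fold change over 2iJ+B-A was 5.03 ± 0.38 (edgeR adjusted p = 0.0043), the lowest adjusted p among the members. Col1a1, the main chain of type I collagen, was at 42.1 CPM in the sorted cells against 1.74, 2.49, 2.08, 3.15 and 0.618 CPM in 2i, 2iJ and the days of 2iJ+B-A and 1.75 and 5.17 CPM in the mesoderm progenitors. The log2 fold change was 4.49 ± 0.85 (edgeR adjusted p = 0.0403), and no other library came near the sorted one. Its partner Col1a2 was at 24.8 CPM there, 1.24 and 1.87 CPM in 2i and 2iJ, 1.88, 2.00 and 0.749 CPM in 2iJ+B-A and 9.95 and 1.45 CPM in the mesoderm progenitors (log2 difference over 2iJ+B-A 4.06 ± 0.94, edgeR adjusted p = 0.0601). Type I collagen has more alpha 1 than alpha 2 chains. Per kilobase Col1a1 was at 3.14 times Col1a2 in the sorted cells, but at 0.325 and 6.58 times in the mesoderm progenitors of days 3 and 4. This RNA ratio depends on the exon lengths used, 6.56 kb for Col1a1 and 12.1 kb for Col1a2.

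Col3a1, the chain of type III collagen, was at 12.7 CPM in the sorted cells, 0.0355 and 0.272 CPM in 2i and 2iJ, 0.611, 1.78 and 1.30 CPM in 2iJ+B-A and 0.541 and 0.581 CPM in the mesoderm progenitors (log2 difference over 2iJ+B-A 3.42 ± 0.61, edgeR adjusted p = 0.0357). Col6a1 was at 18.4 CPM in the sorted cells, 0.107 and 0.234 CPM in 2i and 2iJ, 1.47, 1.08 and 2.28 CPM in 2iJ+B-A and 1.84 and 6.88 CPM in the mesoderm progenitors. Col6a2 was at 14.0 CPM in the sorted cells, 0.178 and 0.584 CPM in 2i and 2iJ, 1.35, 0.763 and 0.326 CPM in 2iJ+B-A and 1.78 and 3.23 CPM in the mesoderm progenitors. All 3 type VI chains were highest in the sorted library, with log2 fold changes over 2iJ+B-A of 3.56 ± 0.75, 4.16 ± 0.75 and, for Col6a3, 4.19 ± 0.86 (edgeR adjusted p = 0.0493, 0.037 and 0.0472). Col20a1 was at 16.5 CPM there, 2.03 and 1.75 CPM in 2i and 2iJ, 2.81, 2.54 and 2.99 CPM in 2iJ+B-A and 0.572 and 0.969 CPM in the mesoderm progenitors (2.61 ± 0.47, edgeR adjusted p = 0.0358).

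In the basement membrane class, Lama5 had an estimate of 1.54 ± 0.43 (edgeR adjusted p = 0.0862) and Col18a1 one of -1.46 ± 0.40 (edgeR adjusted p = 0.0805). For Col4a1 it was -3.22 ± 1.33 and for Col4a2 -3.11 ± 1.35 (edgeR adjusted p = 0.184 and 0.2), and their levels in the sorted cells lay below all 3 libraries of 2iJ+B-A. Col18a1 was called in 5 of 12 alternatives, namely without the filter, with DESeq2, with the 2 groups alone and without either library of the mesoderm progenitors, with estimates from -1.515 to -1.415 over all 12 (adjusted p from 0.00506 to 0.192). Lama5 and Lamb1 passed with DESeq2 only (adjusted p = 0.0164 and 0.0345). Against the unsorted library of the same day, with no test, the ratio was 0.564 for Col4a1, 0.685 for Col4a2, 0.508 for Lamb1, 0.978 for Lamc1, 1.10 for Lama1, 5.05 for Lama5 and 42.3 for Col5a3. Of 39 members at 1 CPM or more in either of those 2 libraries, 17 were at least 2-fold higher in the sorted cells, against 17.5% of 14372 genes, and 6 at least 2-fold lower, against 14.6%.

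These calls rested on the choice of fit. Without any 1 of the 3 libraries of 2iJ+B-A only 1 member, Col5a3, was called, with a slope on the day evaluated at day 2 none was (27 genes were called there), and with DESeq2 16 were. Without a library of the mesoderm progenitors, which give part of the spread, 14 or 15 members passed. All 8 markers of a fibroblast list were highest in the sorted library too, with a summed level of 55.4 CPM against 4.81 to 10.6 CPM in the other 7. Among them Fbln5 was at 17.2 CPM, Postn at 11.4 CPM, Prrx1 at 9.84 CPM and Dcn, a defining one, at 1.72 CPM against at most 0.260 CPM. Thy1 was close, at 9.19 CPM against 7.53 CPM in 2i. Of 5 fibroblast markers tested against 2iJ+B-A, 0 passed (edgeR). All 5 estimates were above 0, with a median log2 fold change of 3.50 beside -0.08 over all genes tested. The rest of the list did not pass the filter on low counts. The sorted library was also the highest for 6 of 8 markers of a trophectoderm list, Cdx2 among them. It was the highest for 23.4% of the tested genes that reached 1 CPM. The same library had the most unmapped pairs and the most pairs in no gene. The part of fibroblast-like cells or of these pairs in its collagen levels was not tested, and line and sorting cannot be told apart.

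**Figure D5:**
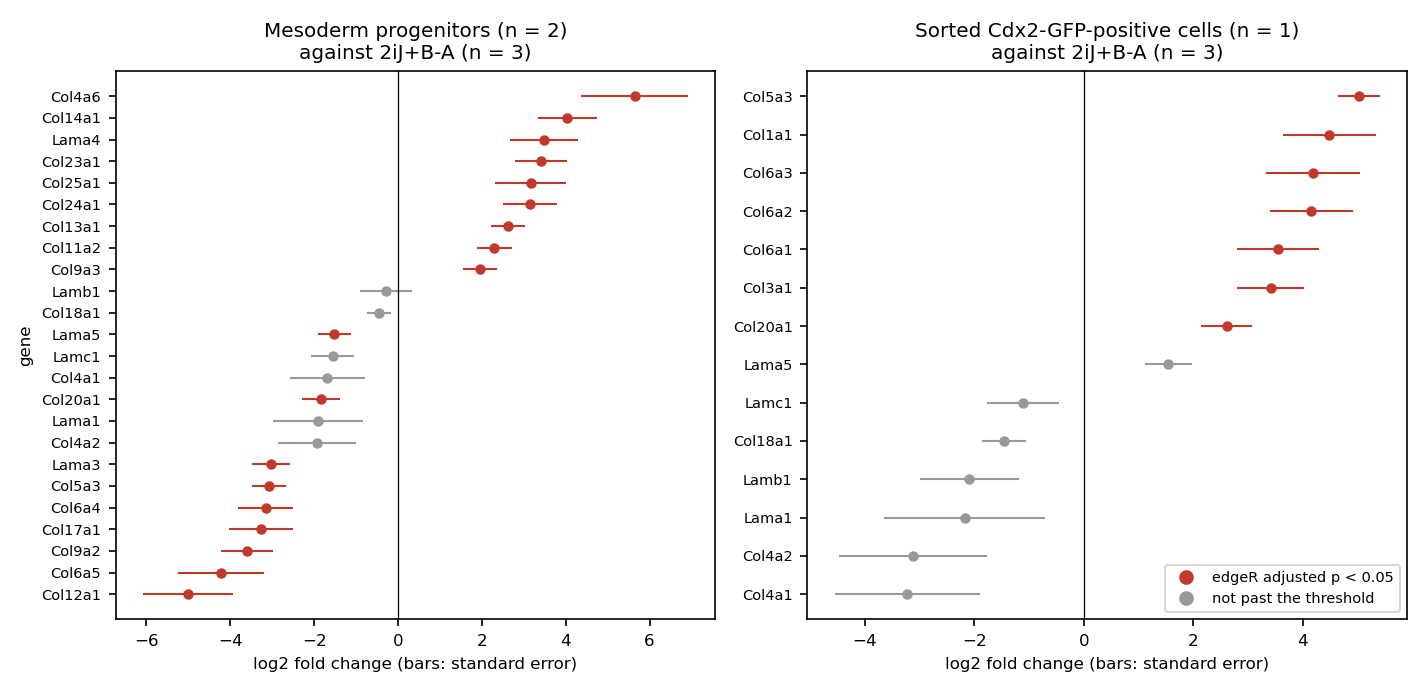
Log2 fold changes (points) and standard errors (bars) from edgeR of all called members (red) and of the 7 abundant basement membrane genes where not called (grey), for mesoderm progenitors (left) and sorted cells (right), both against 2iJ+B-A. On the left 9 members lie above 0 and 9 below in red, and on the right all 7 red points are above 0 while Col4a1 and Col4a2 are the lowest grey points with wide bars.

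Mesoderm progenitors against 2iJ+B-A was the comparison with more than 1 library on each side. Here 9 members were higher, against a background of 11.5% of 16961 genes, and 9 lower, against 15.5%. By class, 4 of 18 tested genes of basement membranes passed (2 in each direction), 3 of 11 fibrillar collagens (2 higher), 5 of 8 FACITs (2 higher), 2 of 6 type VI chains (both lower) and all 4 transmembrane collagens (3 higher). The median log2 fold change was -0.44 in the basement membrane class, 0.73 in the fibrillar class and 2.90 in the transmembrane class, beside -0.03 over all genes tested. Both comparisons with 2iJ+B-A share its 3 libraries. Without day 5 of 2iJ+B-A 7 members (2019 genes) passed, and without day 11 10 members (2666 genes) passed. Col13a1, Col14a1, Col23a1, Col5a3, Col9a2 and Lama3 passed under all 12 alternatives, and each of the other 12 members lost its call under at least 1.

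Among the higher members, Col13a1, a transmembrane collagen of cell adhesions, was at 25.1 and 29.5 CPM in the mesoderm progenitors, 2.93, 6.68 and 3.78 CPM in 2iJ+B-A, 3.98 and 3.85 CPM in 2i and 2iJ and 0.757 CPM in the sorted cells. The groups did not overlap, and the log2 fold change was 2.63 ± 0.41 (edgeR adjusted p = 0.00769). Col23a1, of the same class, was at 7.47 and 21.7 CPM against 1.14, 2.13 and 0.911 CPM in 2iJ+B-A, 0.462 and 0.739 CPM in 2i and 2iJ and 1.62 CPM in the sorted cells (3.40 ± 0.62, edgeR adjusted p = 0.0122). Of the basement membrane chains, Col4a6 (5.64 ± 1.27, edgeR adjusted p = 0.0222) and Lama4 (3.48 ± 0.81, edgeR adjusted p = 0.0247) were higher. Without the day 4 library of the mesoderm progenitors they came to 2.84 (edgeR adjusted p = 0.0797) and 1.48 (edgeR adjusted p = 0.0986). Both calls were also lost without day 2 or without day 11 of 2iJ+B-A, and that of Lama4 without day 5 (edgeR adjusted p from 0.0624 to 0.0873). Col14a1 (4.04 ± 0.70), Col24a1 (3.15 ± 0.64), Col11a2 (2.29 ± 0.42) and Col9a3 (1.96 ± 0.40) were higher at levels that did not pass 8.66 CPM in any library. Without day 5 of 2iJ+B-A the calls of Col24a1, Col11a2 and Col9a3 were lost, and without day 11 that of Col9a3 (edgeR adjusted p from 0.0519 to 0.0669). Col9a3 shares 234 bases with Tcfl5 on the opposite strand. Col25a1, the remaining one, stayed below 1 CPM.

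Among the lower members, Col9a2, a chain of the cartilage collagen type IX, was at 33.7, 28.3 and 13.8 CPM in 2iJ+B-A, 33.1 and 41.2 CPM in 2i and 2iJ, 3.58 CPM in the sorted cells and 1.11 and 3.00 CPM in the mesoderm progenitors. It was high in all R1 mESC libraries and low in the other 3, and the log2 difference from 2iJ+B-A was -3.60 ± 0.62 (edgeR adjusted p = 0.0102). Lama3 (-3.02 ± 0.45, edgeR adjusted p = 0.00673) and Lama5 (-1.52 ± 0.39, edgeR adjusted p = 0.0329) were the lower laminin chains. The call of Lama5 was lost without the mesoderm progenitors of day 4, or without day 5 or day 11 of 2iJ+B-A (edgeR adjusted p from 0.0816 to 0.123). Col12a1, a FACIT of dense tissue, was at 1.02, 6.39 and 8.69 CPM in 2iJ+B-A, 0.675 and 1.17 CPM in 2i and 2iJ, 19.9 CPM in the sorted cells and 0.127 and 0.194 CPM in the mesoderm progenitors (-5.01 ± 1.08, edgeR adjusted p = 0.0197). Col5a3, Col20a1, Col6a4 and Col17a1, the hemidesmosome collagen, had log2 fold changes between -3.27 and -1.83. Col6a5 stayed below 1 CPM in both groups. The call of Col12a1 was lost without either library of the mesoderm progenitors, and those of Col12a1 and Col6a4 without day 5 of 2iJ+B-A. The calls of Col17a1 and Col20a1 were lost without any 1 of the 3 days, and that of Col20a1 also without day 3 of the mesoderm progenitors (over these, edgeR adjusted p from 0.0596 to 0.0917).

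Of the 7 abundant genes of basement membranes, Lama5 was called and the other 6 were not. The log2 fold change was -1.68 ± 0.90 for Col4a1, -1.93 ± 0.94 for Col4a2 and -1.91 ± 1.08 for Lama1 (edgeR adjusted p = 0.211, 0.171 and 0.234), and for all 3 the mesoderm progenitors lay between day 2 and day 11 of 2iJ+B-A. For Lamb1 it was -0.29 ± 0.63, for Col18a1 -0.45 ± 0.29 and for Lamc1 -1.56 ± 0.52 (edgeR adjusted p = 0.768, 0.286 and 0.0696). The direction of Lama1 and Lamb1 turned without the day 11 library (0.062 and 0.69), that of Lamb1 also without the mesoderm progenitors of day 4 (0.017) and that of Col18a1 without those of day 3 (0.013). Lamc1 passed without the filter on low counts, with DESeq2 and without day 2 of 2iJ+B-A (adjusted p = 0.0431, 0.00605 and 0.0299). Col4a2 passed without day 2 of 2iJ+B-A (-2.435, edgeR adjusted p = 0.0381) and Col18a1 without day 4 of the mesoderm progenitors (-0.997, edgeR adjusted p = 0.0177).

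The other fibrillar collagens were spread over the groups. Col5a1, the initiating chain of type V fibrils, was at 16.3 and 17.6 CPM in 2i and 2iJ, 18.8, 64.0 and 35.5 CPM in 2iJ+B-A, 13.1 CPM in the sorted cells and 43.6 and 65.6 CPM in the mesoderm progenitors. Col2a1, the cartilage collagen, was at 10.3 and 17.8 CPM in 2i and 2iJ, 3.95, 10.7 and 5.44 CPM in 2iJ+B-A, 3.74 CPM in the sorted cells and 8.74 and 13.6 CPM in the mesoderm progenitors. Neither passed a test, and in both genes the mesoderm progenitors overlapped with 2iJ+B-A. Col11a1 was at 3.23 and 6.23 CPM in 2i and 2iJ, 7.21, 9.60 and 16 CPM in 2iJ+B-A, 0.757 CPM in the sorted cells and 3.40 and 7.04 CPM in the mesoderm progenitors. Col27a1 was at 3.41, 4.90, 4.16, 6.80, 18.1, 2.57, 22.4 and 9.5 CPM in that order, so that it was highest on day 11 among the mESC libraries and in the mesoderm progenitors of day 3 overall. Col5a2 stayed between 2.73 and 8.53 CPM.

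Day 4 of the mesoderm progenitors was set beside day 3 with no test, and the inhibitor of Wnt secretion and the day cannot be told apart. Of 33 members at 1 CPM or more in either library, 11 were at least 2-fold higher on day 4, against 9.12% of 13314 genes, and 5 at least 2-fold lower, against 10.3%. The higher ones were Col4a5 (8.72-fold), Col4a6 (13.2-fold), Lama4 (7.16-fold), Lamb2, Col9a1, Col9a2, Col14a1, Col23a1, Col1a1, Col6a1 and Col11a1. Col9a1 was at 1.21 and 11.5 CPM there, and between 0 and 1.88 CPM in the 6 other libraries (0.284 CPM in 2i, 1.44 CPM in 2iJ, 1.88, 1.62 and 0.749 CPM in 2iJ+B-A). Among the lower ones were Col1a2, Col22a1, Col27a1 and Lamb3. Col4a1 (0.953-fold), Col4a2 (0.875-fold) and Lama1 (1.10-fold) were near the day 3 level.

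Among 14 partners of basement membranes, 7 passed in the mesoderm progenitors against 2iJ+B-A, 2 higher and 5 lower, and 0 in the sorted cells or in 2iJ+B-A against 2iJ (edgeR; 5 and 2 at an unadjusted p under 0.05). Over all genes tested 27.0% passed in the mesoderm progenitors, and at an unadjusted p under 0.05 there were 27.0% in the sorted cells and 7.61% in 2iJ+B-A against 2iJ, and the lists that follow are to be read beside these shares. Nid1, the nidogen that links laminin to type IV collagen, was at 369, 498 and 548 CPM in 2iJ+B-A and 12.9 and 50.1 CPM in the mesoderm progenitors (a log2 difference of -3.88 ± 0.62, edgeR adjusted p = 0.00828). Tinagl1 (-4.47), Npnt (-2.51), the ligand of an integrin, and Nid2 (-1.65) were lower too. Pxdn, the peroxidase that crosslinks type IV collagen, was higher, at 138 and 237 CPM against 23.6, 34.9 and 32.6 CPM (2.65 ± 0.29, edgeR adjusted p = 0.00306), and so was Frem1 (5.00). The median over the 14 was -0.54. Sparc, which binds type IV collagen, was at 268, 532 and 1247 CPM on the 3 days of 2iJ+B-A, in the same order as Col4a1.

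Of 17 tested enzymes and chaperones that fold collagen, 4 passed in the mesoderm progenitors, 2 higher (the prolyl 3-hydroxylase Leprel1, 3.50, and Fkbp10, 2.05) and 2 lower (P4ha3 and Crtap, the latter -1.15), with a list median of -0.11, a share of 23.5% near that of all genes. Serpinh1, the collagen chaperone, was at 86.3, 167 and 318 CPM in 2iJ+B-A, 277 and 551 CPM in the mesoderm progenitors and 57.1, 89.5 and 65.2 CPM in 2i, 2iJ and the sorted cells, with no call. None of the 17 passed in the sorted cells, where 6 had an unadjusted p under 0.05, or in 2iJ+B-A against 2iJ, where 0 had (edgeR). In the sorted cells, where Col1a1 and Col3a1 were higher, Serpinh1 lay between its levels in 2i and 2iJ. Of 12 tested genes that process or crosslink procollagen, 4 were higher and 2 lower in the mesoderm progenitors (median 1.54), among them the procollagen proteinases Bmp1 (3.08) and Adamts3 (4.24) above and Tgm2 (-5.66) and Adamts14 (-2.93) below. Adamts14 was also lower in the sorted cells (-2.78 ± 0.53, edgeR adjusted p = 0.0404), the 1 call of that list there.

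Of 11 tested receptors, 1 was higher and 3 were lower in the mesoderm progenitors (median -0.71). Itgb1, the beta chain of the laminin and collagen integrins, was at 658 and 680.5 CPM against 241, 281 and 308 CPM in 2iJ+B-A (1.29 ± 0.15, edgeR adjusted p = 0.00348). Ddr2, a receptor kinase for fibrillar collagen, was at 0.254 and 0.291 CPM against 75.7, 209 and 278 CPM (-9.39 ± 0.80, edgeR adjusted p = 0.00174). Of 8 tested matrix metalloproteinases and their inhibitors, 3 were higher and 1 lower (median 0.86), with Mmp2, a type IV collagenase, at 47.6 and 138 CPM against 8.93, 7.09 and 4.49 CPM and Mmp14, its activator, at 60.0 and 69.9 CPM against 5.87, 10.4 and 9.11 CPM. The lower one was Timp1 (-1.67). In the receptors and in this list no gene passed in the sorted cells (6 and 3 at an unadjusted p under 0.05) or in 2iJ+B-A against 2iJ (1 and 3, edgeR).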

How the data were processed

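RNA was read as paired ends from strand-specific poly-A libraries. The authors demultiplexed with bcl2fastq 2.17, trimmed with TrimGalore and cutadapt, and aligned with STAR 2.4.2a to NCBIM37. What was deposited for each library is the unnormalised count of read pairs in each gene. The annotation release is not given in the sources used here. GENCODE vM1 named 37205 of 37620 genes. Counts of the reverse strand were used, since 5.03 to 6.47% of strand-assigned pairs lay on the other. Of uniquely mapped pairs, 7.83 to 13.2% fell in no gene in 7 libraries and 27.8% in the sorted one, and these stayed out of library sizes.

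CPM was the count divided by the total gene count of the library, scaled to 1000000. For tests, 1 coefficient per group was fitted over all 8 libraries (5 groups, 3 residual degrees of freedom) with edgeR 4.0.16 in R 4.3.3, after dropping genes that did not reach 10 counts in 2 or more libraries (16961 were kept), with TMM scaling, the quasi-likelihood test and Benjamini-Hochberg adjustment at 0.05 over all genes tested. The SE was taken from the fold change and its F statistic. A group of 1 library was assumed to vary like the others. Alternatives were DESeq2 1.42.0, its size factors, total counts only, no filter and unstranded counts. Others were the 2 groups alone, a slope on day, and 2i and 2iJ pooled. Libraries of 2iJ+B-A, the mesoderm progenitors and the sorted cells were also left out in turn, but not those of 2i and 2iJ. The test was checked on simulated counts. Intervals are 95% Wilson intervals (scipy 1.17.1) and figures were drawn with matplotlib 3.10.9.

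The days of a group were taken as its samples. The authors used ComBat against a batch effect of the day of the experiment in their own analysis, an adjustment which these counts do not carry and which was not repeated. All titles carry the same mark, II, whose meaning is not stated, and no label separates the libraries by day of experiment, so no values within a batch are given. Members and lists were chosen with earlier results of these data known. Genes reaching 10 CPM in any library are given in every library and the rest by ranges, or by name where called. Called members are named in full up to 15 in a comparison, otherwise by size of fold change in each direction among those reaching 1 CPM, with the others named as such. Promoter windows come from RefSeq (GRCm38.p6); 40 members matched, and the letters were found in NCBIM37 by exact search. Collagen and laminin genes absent from the annotation under these symbols were not analysed here, and 1 member is not reported here by name, though it stays in the counts and sums.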

Additional observations from a re-analysis of the deposited data

Results flagged for a closer look

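Counts assigned to the other strand, which no comparison used, had a share whose 95% Wilson interval lay wholly above that of the 2i library for 4 genes, each in 1 library, over members with at least 20 such pairs and with no correction for the number looked at. For Col9a3 the share of strand-assigned pairs on the other strand was 70.3% in 2iJ+B-A on day 11 (97 pairs against 41), where 2i gave 51.3%. Tcfl5 lies on that strand and overlaps by 234 bases. For Col13a1 it was 65.9% in the sorted cells (29 pairs against 15) and 13.8% in 2i, so the low level of Col13a1 in the sorted cells rests on 15 pairs. For Lama3 it was 5.83% in 2iJ against 1.85% in 2i, and for Lamc1 3.9% in the mesoderm progenitors of day 3 against 2.59%. The part of antisense RNA or of imperfect strand marking in these shares was not tested.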

How the results depend on the processing

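No paired analysis was possible because replicate numbers were given in the order of the samples and the groups share no more than single days. For mesoderm progenitors against 2iJ+B-A, 4584 genes and 18 members were called, and 2019 to 4597 genes and 7 to 21 members with 1 library left out. For the sorted cells, 919 genes and 7 members were called, against 1390 and 11 without the filter, 2606 and 16 with DESeq2, 1911 and 15 with the 2 groups alone, 27 and 0 with the slope at day 2, and 37 to 2052 and 1 to 15 with 1 library left out. For 2iJ+B-A against 2iJ, DESeq2 called 283 genes and 2i and 2iJ pooled as reference called 3, with no member in either. The slope on day gave 0 genes and 0 members. Without 1 library of the mesoderm progenitors, 379 to 469 genes and 6 to 9 members were under the threshold. The spread between the mesoderm progenitors is absent from those fits, and only the departure of the 2iJ+B-A days from a line is left. These counts are therefore not read as calls. The test of 2iJ against 2i was also added after the data had been seen.

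In log2 units, with 1 library left out the estimates in mesoderm progenitors ranged from -0.997 to 0.013 for Col18a1 (positive without day 3), from -2.394 to 0.062 for Lama1 (positive without day 11 of 2iJ+B-A) and from -0.634 to 0.69 for Lamb1 (positive without that day and, at 0.017, without day 4 of the mesoderm progenitors). In the sorted cells Lama1 turned to 0.449 and Lamc1 to 0.019 with the slope at day 2, and against 2iJ Lamc1 ranged from -0.295 (without day 11) to 0.633. None of the turned estimates was called. The summed basement membrane level moved from 1127 CPM to 1143 (unstranded) and 1168 (TMM) in 2i, from 1192 to 1207 and 1223 in 2iJ, and from 1624 to 1647 and 1651 in the sorted cells. The TMM values follow from scaling factors of 0.9659 for 2i, 0.9747 for 2iJ and 0.9848 for the sorted cells. The cause of the shift with unstranded counts was not tested. In the sorted comparison the median of all genes was -0.08, and -0.13 with total counts and -0.22 without the filter. Depth limits members under 1 CPM, which rest on few pairs.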
